A study of Mus musculus with 12 samples.

Results

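The osteoclast transcription activators and repressors are 9 genes chosen by name. Nfatc1, Fos, Fosl2, Jdp2, Mitf and Spi1 were grouped as activators, Prdm1 as the factor that silences repressors, and Irf8 and Bcl6 as repressors. These roles were not tested here. The group holds 9 of 55401 gene identifiers in the culture data, and all 9 were among the 14030 genes with enough counts to be tested. The study deleted Impdh2, which encodes an enzyme of guanine nucleotide synthesis, in mice. Its culture experiment holds 8 RNA sequencing libraries in 4 groups of 2, labelled osteoclast. The series also holds embryonic forelimb libraries, which were not used here. Per the labels, the marrow of Wt and of Impdh2 LysM-cKO mice was cultured for 3 days with supernatant of L929 cells. This supplied the growth factor M-CSF at the equivalent of 20 ng/ml. The cells were then reseeded and stimulated with 40 ng/ml of RANKL, the cytokine that induces osteoclasts. LysM is a driver active in the myeloid lineage, so a loss of Impdh2 there can begin before the cultures are set up and need not reach each cell. Each genotype was sequenced under the titles R0D3 and R40D3, each with replicates 1 and 2. The titles are not explained in the labels, which give all 8 libraries the same treatment, so R0D3 and R40D3 are used as names of 2 cultures. Animal age and strain are not given in the sources used here. Nor is it stated whether the replicates came from separate animals, so p-values measure only the spread between these samples.

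Osteoclasts form when macrophage precursors respond to RANKL. PU.1 (Spi1) and MITF act early in the lineage, and RANKL then induces AP-1 dimers that contain c-Fos, which switch on NFATc1, the factor that drives most genes of bone resorption. Precursors also hold transcription repressors such as IRF8 and BCL6. Blimp-1, the product of Prdm1, is a repressor known to act on the genes of such repressors, which frees the NFATc1 programme.

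The libraries held 16009146 to 19221865 counts. Impdh2 was at 25.7 and 27.7 CPM (read counts scaled to a common library total) in R40D3 Wt and at 7.72 and 8.38 CPM in R40D3 LysM-cKO. The R0D3 levels were 22.3 and 28.2 CPM in Wt, with 7.36 and 7.03 CPM in LysM-cKO. Its log2 fold change in LysM-cKO was −1.73 at R40D3 and −1.81 at R0D3 (edgeR quasi-likelihood, adjusted p 0.0386 and 0.0323). Both Impdh2 calls ended without any 1 of the 8 libraries (edgeR adjusted p 0.109 to 0.661 at R40D3 and 0.0761 to 0.546 at R0D3) and with the 4 compared libraries alone (0.578 and 0.408), and the R40D3 call also with library size alone (adjusted p 0.05). Over the leave-outs the log2 fold change stayed between −1.81 and −1.65 at R40D3 and between −1.97 and −1.63 at R0D3. The osteoclast label held at the marker level in R40D3, where the summed level of 10 osteoclast markers was 26060 and 38520 CPM in Wt and 12985 and 24605 CPM in LysM-cKO. In R0D3 the same sum was 250 to 383 CPM. Most of it was Atp6v0d2, a proton pump subunit gene, at 195 to 275 CPM, with Ctsk at 23.9 to 63.0 CPM and Acp5 at 12.4 to 15.8 CPM, whereas Calcr, which encodes the calcitonin receptor, had no count in any of the 4 libraries. The R0D3 libraries thus held osteoclast markers at far lower levels than R40D3. The summed level of 8 macrophage markers was 38387 and 43535 CPM in R0D3 Wt and 26889 and 27577 CPM in R40D3 Wt. In LysM-cKO it was 24014 and 24530 CPM at R0D3 and 20311 and 18380 CPM at R40D3. Most of each sum was Lyz2, the lysozyme gene. Without Lyz2, left out after its values were seen, the Wt sum was 8391 and 8280 CPM at R0D3 and 7940 and 7243 CPM at R40D3. The LysM-cKO sum without it was 8610 and 7674 CPM at R0D3 and 8538 and 7078 CPM at R40D3. Between the cultures 7 of the 8 were lower at R40D3 in Wt, with a median log2 fold change of −0.42, 1 called and 5 called with the replicate block. In LysM-cKO 6 were lower, with a median of −0.24 and 2 called, beside 10.1% of all tested genes. The part of these levels in the changes of the 9 regulators between cultures was not tested.

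**Figure D1:**
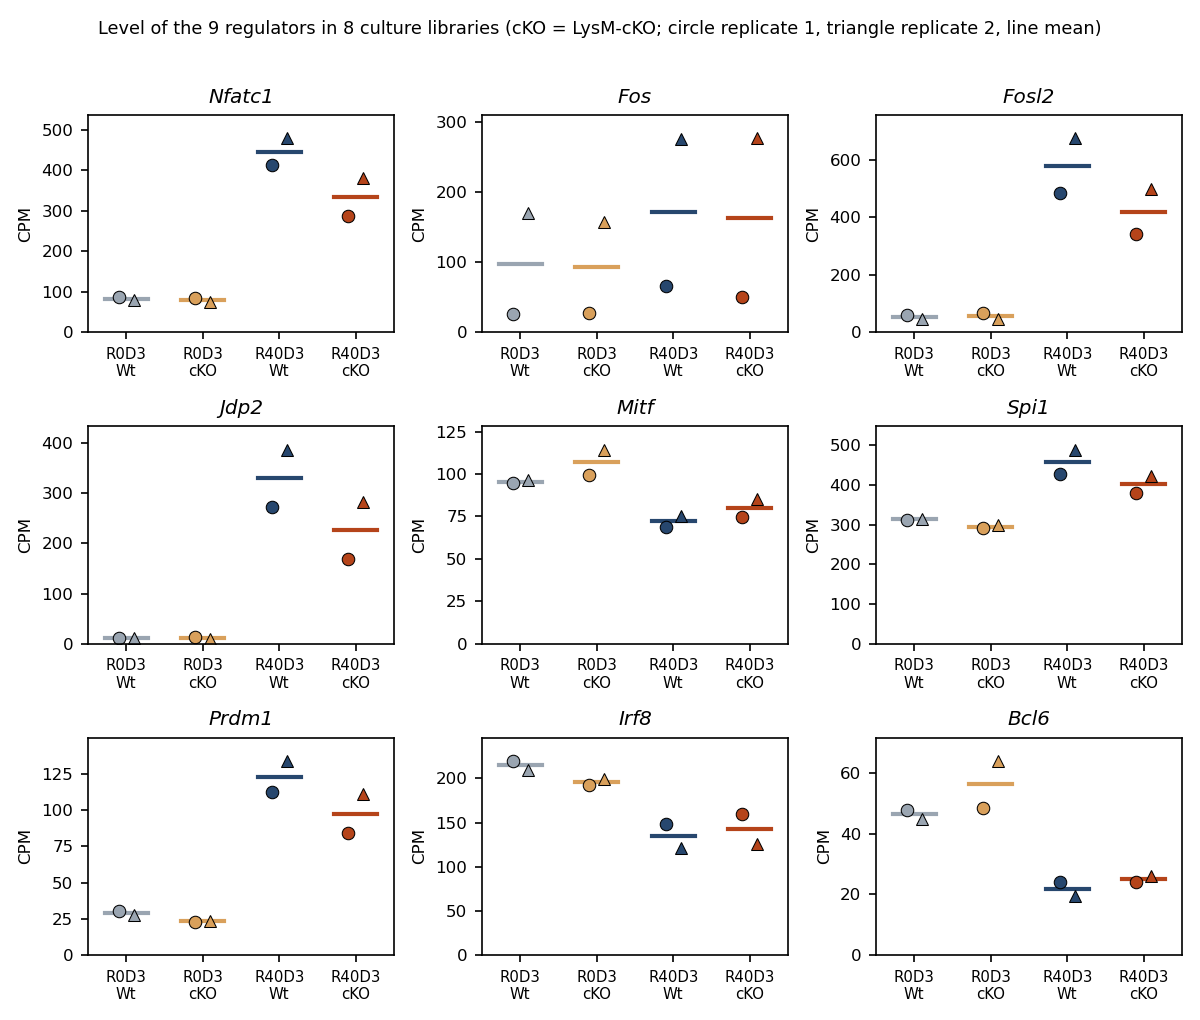
Each panel plots the CPM of 1 gene (y axis, from 0) in the 8 libraries by culture and genotype (x axis, cKO for LysM-cKO), with a circle for replicate 1, a triangle for replicate 2 and a line for the mean of the group. Nfatc1, Fosl2, Jdp2, Spi1 and Prdm1 stand higher and Mitf, Irf8 and Bcl6 lower in each R40D3 library than in each R0D3 library, while the Fos libraries separate by replicate number.

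Between R0D3 and R40D3, 5 of the 9 genes rose and 3 fell in Wt, against a background of 16.9% of all tested genes called in either direction. Those that rose were Jdp2, Fosl2, Nfatc1, Prdm1 and Spi1, from 29.7-fold for Jdp2 to 1.46-fold for Spi1. Those that fell were the repressors Bcl6 and Irf8, together with Mitf. Of all tested genes, 11.4% were called higher and 5.52% lower in Wt. In LysM-cKO the same 5 genes passed upward and Bcl6 downward, 6 of 9 against a background of 10.1%, of which 6.99% were higher and 3.15% lower. In both genotypes 8 of the 9 genes, all but Fos, had no overlap between the 2 cultures, 5 of them higher and 3 lower at R40D3. The shares of all tested genes without overlap were 32.9% higher and 29.2% lower in Wt, and 27.3% higher and 22.5% lower in LysM-cKO. The replicate numbers were found to pair the libraries, and with the replicate number as a block all 9 passed in each genotype, 6 upward and 3 downward. The background with the block was 28.3% in Wt and 21.3% in LysM-cKO. The median log2 fold change over all tested genes was 0.01 in each genotype. These are bulk samples, in which fewer cells of a type and less RNA per cell cannot be told apart. The Wt and LysM-cKO values of each gene are given side by side.

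**Figure D2:**
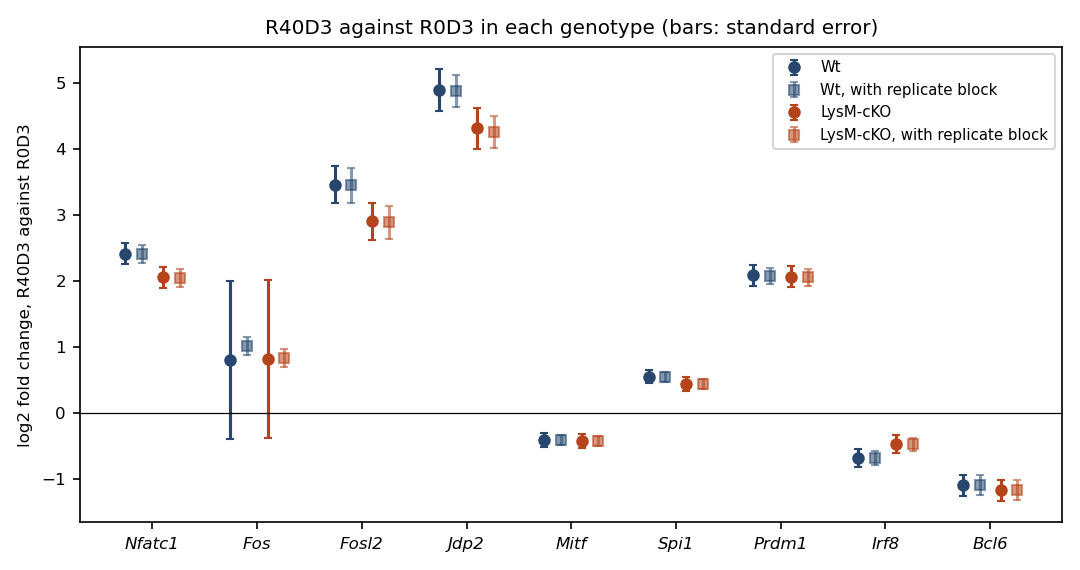
The y axis is the log2 fold change of R40D3 against R0D3 for each of the 9 genes on the x axis, in Wt (blue) and LysM-cKO (red), with circles without and squares with the replicate number as a block and bars for the standard error. The Fos values lie at 0.81 and 0.82 with a standard error of 1.20 without the block and at 1.02 and 0.83 with standard errors of 0.14 with it.

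Promoter sequences are shown for 4 of the genes that moved between the cultures, 2 that rose and 2 that are repressors, so that the letters upstream of their starts can be read beside the levels. RefSeq promoter windows on GRCm38 matched 7 of the 9 genes, in 13 windows, with none for Nfatc1 or Spi1. Each printed run is the 250 bases before an annotated start, 5′ to 3′ on the gene's strand, in a window that holds no annotated exon base. Capitals mark matches, on either strand, to TGANTCA (AP-1), GGAAA (NFAT core), GAGGAA (PU.1 core), CACGTG (MITF E-box) or a repeat read by IRF factors and Blimp-1 (GAAA, any 2 letters, GAAA). The NFAT core and the PU.1 core can overlap each other. The windows are chr10:44458749-44458998 on the minus strand for Prdm1, chr12:85599768-85600017 on the plus strand for Jdp2, chr8:120736108-120736357 on the plus strand for Irf8, and chr16:23988853-23989102 on the minus strand for Bcl6. The Prdm1 and Jdp2 windows lie before an internal start, within the gene body of a longer transcript. The Irf8 window lies within the gene body of another annotated gene, Gm20388.
Prdm1: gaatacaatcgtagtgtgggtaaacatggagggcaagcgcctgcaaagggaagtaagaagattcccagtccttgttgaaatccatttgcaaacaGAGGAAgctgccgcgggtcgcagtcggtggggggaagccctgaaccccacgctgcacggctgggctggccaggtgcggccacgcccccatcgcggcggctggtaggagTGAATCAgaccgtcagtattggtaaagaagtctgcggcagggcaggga
Jdp2: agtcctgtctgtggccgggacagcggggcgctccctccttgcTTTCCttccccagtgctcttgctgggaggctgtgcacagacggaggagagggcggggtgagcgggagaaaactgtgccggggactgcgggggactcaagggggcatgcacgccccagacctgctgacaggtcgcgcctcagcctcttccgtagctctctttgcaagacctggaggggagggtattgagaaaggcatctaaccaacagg
Irf8: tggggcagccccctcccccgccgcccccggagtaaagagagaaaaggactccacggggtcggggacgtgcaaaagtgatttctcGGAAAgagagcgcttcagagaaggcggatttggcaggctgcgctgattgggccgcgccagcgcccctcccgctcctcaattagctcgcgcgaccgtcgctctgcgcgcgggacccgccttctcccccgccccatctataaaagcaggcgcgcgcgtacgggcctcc
Bcl6: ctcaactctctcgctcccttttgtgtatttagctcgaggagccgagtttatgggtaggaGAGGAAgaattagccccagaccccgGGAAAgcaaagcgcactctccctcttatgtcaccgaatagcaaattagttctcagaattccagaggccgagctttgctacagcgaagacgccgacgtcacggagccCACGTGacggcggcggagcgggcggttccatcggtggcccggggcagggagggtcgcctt
The Prdm1 window held TGAATCA, a match to the AP-1 letters, 48 bases before the start, and the PU.1 core 156 bases before it. AP-1 letters were found in 6.75% and the PU.1 core in 23.3% of 32851 promoter windows of this length. The Jdp2 window held the NFAT core on the opposite strand 208 bases before the start, and the Irf8 window held it 166 bases before the start. The NFAT core is short and was found in 55.6% of the windows. The Bcl6 window held the PU.1 core at 191 bases, the NFAT core at 166 bases and CACGTG at 60 bases before the start. CACGTG was found in 6.02% of the windows, and the IRF and Blimp-1 repeat, which none of the 4 printed runs held, in 2.98%. A match is a run of letters and not a measured binding site.

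Nfatc1 (chromosome 18, minus strand, 80606205 to 80713071 in GRCm38, as for all positions that follow) encodes the master factor of osteoclast formation. Its level was 87.8 and 79.5 CPM in R0D3 Wt, and 413 and 479 CPM in R40D3 Wt. The LysM-cKO level was 84.9 and 76.0 CPM at R0D3, and 287 and 382 CPM at R40D3. The 4 R0D3 libraries lay close together, and each R40D3 library was above each of them. Nfatc1 rose 5.33-fold in Wt, a log2 fold change of 2.42 (edgeR adjusted p 0.000264, SE 0.16). In LysM-cKO it rose 4.16-fold, a log2 fold change of 2.06 (edgeR adjusted p 0.000728, SE 0.16). Of all tested genes, 2.49% had a larger absolute log2 fold change in Wt.

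Jdp2 encodes a bZIP protein that pairs with AP-1 factors and is known to be needed for osteoclast formation. It spans 85599027 to 85639878 on chromosome 12, plus strand. Its level was 10.8 and 11.4 CPM in R0D3 Wt, and 272 and 386 CPM in R40D3 Wt. LysM-cKO libraries had 13.2 and 9.52 CPM at R0D3, and 169 and 282 CPM at R40D3. No other of the 9 genes had a larger fold change. The log2 fold change was 4.89 in Wt (edgeR adjusted p 0.000264, SE 0.32) and 4.31 in LysM-cKO (edgeR adjusted p 0.000571, SE 0.31). An opposite-strand noncoding gene, Gm47863, shares 165 exon bases with Jdp2, or 7.68% of its exonic length. The use of strand in counting is not given in the sources used here, so reads in those bases could count for either gene. Gm47863, named for its position and not by the rule for named genes, rose by a log2 fold change of 3.39 in Wt (edgeR adjusted p 0.0014, SE 0.36) from a mean of 0.899 to 9.57 CPM. That level is small beside that of Jdp2.

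Fosl2 encodes Fra-2, a Fos family partner of Jun proteins. The gene spans 32135801 to 32157842 on chromosome 5, plus strand. Its level was 59.0 and 46.8 CPM in R0D3 Wt, and 485 and 675 CPM in R40D3 Wt. LysM-cKO libraries had 66.2 and 46.3 CPM at R0D3, and 342 and 499 CPM at R40D3. Each R40D3 library was above each R0D3 library. Fosl2 rose by a log2 fold change in Wt of 3.46 (edgeR adjusted p 0.000556, SE 0.28) and of 2.90 in LysM-cKO (edgeR adjusted p 0.00151, SE 0.27).

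Fos, the gene of c-Fos, behaved differently from the other 8. It spans 85473890 to 85477273 on chromosome 12, plus strand, and its start is 125.1 kb from that of Jdp2. In replicate 1 its level was 25.6 CPM in R0D3 Wt, 27.4 CPM in R0D3 LysM-cKO, 66.9 CPM in R40D3 Wt and 50.2 CPM in R40D3 LysM-cKO. In replicate 2 the same groups were at 170.2, 158, 276 and 277 CPM. The R0D3 and R40D3 groups overlapped, because each replicate 2 library was above each replicate 1 library whatever its culture. Replicate 2 was 6.64 times replicate 1 in R0D3 Wt, 5.77 times in R0D3 LysM-cKO, 4.12 times in R40D3 Wt and 5.51 times in R40D3 LysM-cKO. Over the 14030 tested genes, 1 other, Capn11, had a smallest replicate difference over the 4 groups at least as large as the smallest of Fos, 2.04 in log2 CPM. Capn11 was found after its values were seen.

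Without the replicate block the log2 fold change of Fos was 0.81 in Wt and 0.82 in LysM-cKO, each with a standard error of 1.20, and neither passed (edgeR adjusted p 0.715 and 0.748). With the block it was 1.02 in Wt (edgeR adjusted p 0.000874, SE 0.14) and 0.83 in LysM-cKO (edgeR adjusted p 0.00345, SE 0.14). Within each replicate number R40D3 was above R0D3 in both genotypes, by 1.38 and 0.70 on the log2 scale in Wt and by 0.87 and 0.81 in LysM-cKO. Leaving out R40D3 Wt replicate 2 turned the Wt value to −0.59, and leaving out R40D3 LysM-cKO replicate 2 turned the LysM-cKO value to −0.91. The counts of the replicates were deposited as 1 table per replicate number. Which step of culture, RNA extraction, sequencing or processing separates the numbers is not given in the sources used here, and its part in the Fos difference was not tested.

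Among 15 other AP-1 and related bZIP factors, 1 rose and 3 fell in Wt, beside 11.4% higher and 5.52% lower over all tested genes, and 1 rose and 4 fell in LysM-cKO, beside 6.99% and 3.15%. With the replicate block 3 rose in each genotype, and 6 fell in Wt and 5 in LysM-cKO. Medians over the list were −0.15 (Wt) and −0.10 (LysM-cKO) on the log2 scale, beside 0.01 over all tested genes. Atf3, a stress-induced bZIP factor, was at 219 and 197 CPM in R0D3 Wt and at 72.5 and 58.5 CPM in R40D3 Wt. It fell by 1.67 on the log2 scale in Wt (edgeR adjusted p 0.00171, SE 0.19) and by 1.89 in LysM-cKO (edgeR adjusted p 0.00185, SE 0.19). The small Maf protein gene Maff rose from 3.09 and 3.67 CPM to 10.4 and 16.1 CPM in Wt, a log2 fold change of 1.97 (edgeR adjusted p 0.00491). In LysM-cKO the Maff change was 1.52 (edgeR adjusted p 0.0239). Mafk, another small Maf gene, fell by 0.62 in Wt and 0.60 in LysM-cKO on the log2 scale (edgeR adjusted p 0.0138 and 0.0232). Cebpa, which encodes a myeloid C/EBP factor, fell by 0.64 in Wt (edgeR adjusted p 0.0153). Jun, the gene of c-Jun, fell by 0.62 in LysM-cKO (edgeR adjusted p 0.018), from 207 and 213 CPM to 136 and 137 CPM.

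Junb, a Jun family gene that the rule did not name, is given because its replicate 2 was above replicate 1 in each group, as for Fos. Its replicate 2 was 1.86 times replicate 1 in R0D3 Wt, 1.58 times in R0D3 LysM-cKO, 1.88 times in R40D3 Wt and 1.80 times in R40D3 LysM-cKO. Other genes of the list did so too, among them Maff (1.013 to 1.549 times) and Atf4 (1.151 to 1.378 times). The range was 1.438 to 2.184 times for Batf3 and 1.708 to 11.09 times for Fosb. Fosb is a Fos family gene that the rule did not name, and it was at no more than 1.42 CPM. Batf, a bZIP gene whose start is 212.8 kb from that of Fos on chromosome 12, is given for its position. It had means of 7.75 CPM in R0D3 Wt and 6.95 CPM in R40D3 Wt, and its log2 fold change of −0.15 did not pass (edgeR adjusted p 0.747, SE 0.24).

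**Figure D3:**
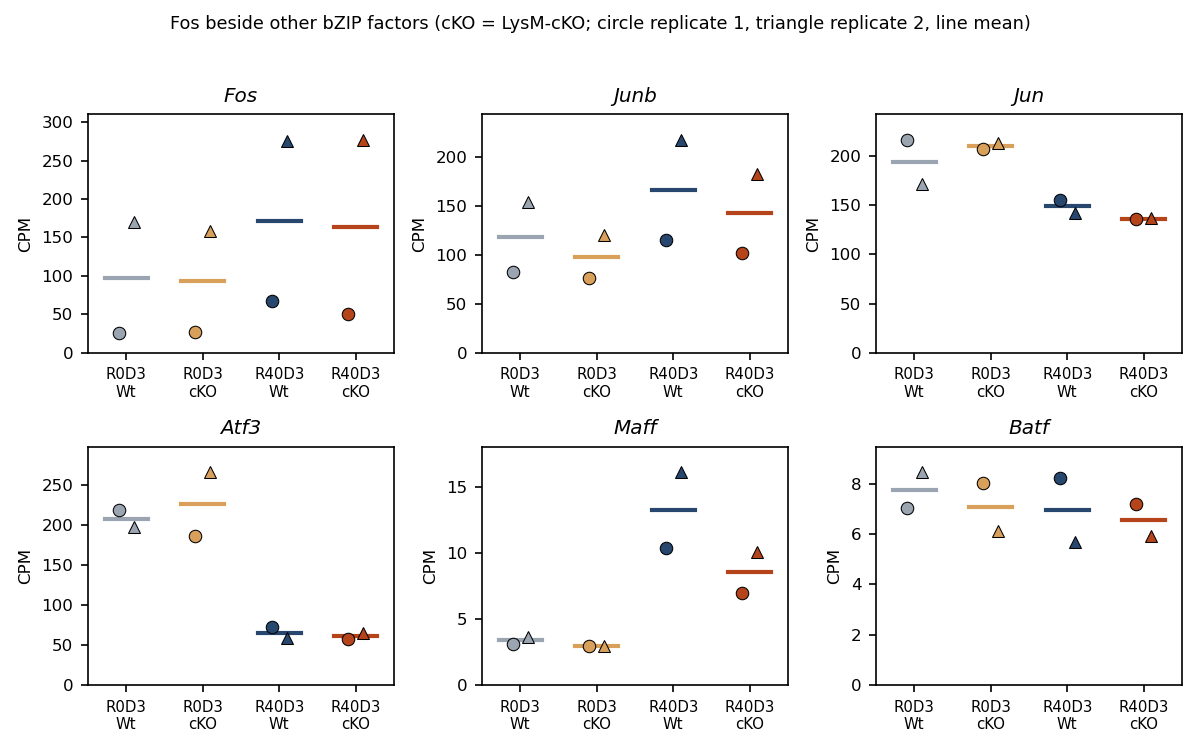
Each panel plots the CPM (y axis, from 0) of Fos or another bZIP gene in the 8 libraries by culture and genotype (x axis), with a circle for replicate 1, a triangle for replicate 2 and a line for the group mean. Replicate 2 lies above replicate 1 in each of the 4 groups for Fos, Junb and Maff, whereas Atf3 separates by culture, from 57.0 to 72.5 CPM in R40D3.

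Mitf encodes a bHLH zipper factor that activates resorption genes such as Acp5 and Ctsk. The gene spans 97807052 to 98021349 on chromosome 6, plus strand. Its level was 94.5 and 96.3 CPM in R0D3 Wt, and 69.0 and 75.4 CPM in R40D3 Wt. The LysM-cKO level was 99.3 and 114 CPM at R0D3, and 74.5 and 85.4 CPM at R40D3. Unlike the other activators, each R40D3 library was below each R0D3 library. Mitf fell by 0.40 on the log2 scale in Wt (edgeR adjusted p 0.0421, SE 0.11). In LysM-cKO the log2 fold change was −0.42 (SE 0.11) and missed the threshold (edgeR adjusted p 0.0513), and it passed with the replicate block (adjusted p 0.00442). The Wt call ended without R0D3 Wt replicate 1 or 2 (edgeR adjusted p 0.162 and 0.188), without R40D3 Wt replicate 1 or 2 (adjusted p 0.165 and 0.11) and with no filter on low counts (adjusted p 0.0598). Of its 3 relatives, Tfeb fell by 0.48 in Wt (edgeR adjusted p 0.0185, SE 0.10) and was at −0.28 in LysM-cKO (adjusted p 0.152). Tfe3 and Tfec did not pass in either genotype, with log2 fold changes of −0.19 and 0.05 in Wt and 0.04 and 0.33 in LysM-cKO. With the replicate block Tfec passed in LysM-cKO (edgeR adjusted p 0.0366). Counts per gene do not separate the promoters of Mitf, which has several.

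Spi1 encodes PU.1, which sets the myeloid lineage. Its position is chromosome 2, 91082390 to 91115756, plus strand. Its level was 312 and 314 CPM in R0D3 Wt, and 428 and 489 CPM in R40D3 Wt. In LysM-cKO it was 291 and 299 CPM at R0D3, and 380.3 and 422 CPM at R40D3. Each R40D3 library was above each R0D3 library, though by less than for the other genes that rose. The log2 fold change was 0.55 in Wt (edgeR adjusted p 0.0099, SE 0.10) and 0.44 in LysM-cKO (edgeR adjusted p 0.033, SE 0.10). The Wt call ended without R0D3 Wt replicate 1, R0D3 Wt replicate 2 or R40D3 Wt replicate 2 (edgeR adjusted p 0.0831, 0.0766 and 0.118). The LysM-cKO call ended in 7 of 8 leave-outs, those of both R0D3 Wt libraries (edgeR adjusted p 0.0768 and 0.0771), both R0D3 LysM-cKO libraries (0.153 and 0.126), both R40D3 Wt libraries (0.0529 and 0.052) and R40D3 LysM-cKO replicate 2 (0.226). It also ended with no low-count filter (adjusted p 0.0585) and with the 4 compared libraries alone (adjusted p 0.0901). With the replicate block both values passed (adjusted p 0.000816 in Wt and 0.00364 in LysM-cKO).

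The list of other NFAT factors and calcineurin pathway genes held 16 genes, of which 14 were tested. In Wt 1 rose and 1 fell, and in LysM-cKO 1 rose and none fell, which is near the shares over all tested genes of 16.9% and 10.1% called in either direction. With the replicate block 2 rose and 1 fell in Wt, and 1 rose and none fell in LysM-cKO. The block called 28.3% and 21.3% of all tested genes. The list's medians were 0.06 and 0.09, beside 0.01 over all tested genes. Rcan1, which encodes a calcineurin regulator and is a known NFAT target, was at 27.7 and 28.4 CPM in R0D3 Wt and at 114 and 142 CPM in R40D3 Wt. LysM-cKO libraries had 27.4 and 27.0 CPM at R0D3, and 76.6 and 102 CPM at R40D3. It rose by a log2 fold change of 2.19 in Wt (edgeR adjusted p 0.000452, SE 0.16) and of 1.72 in LysM-cKO (edgeR adjusted p 0.00157, SE 0.16). Creb1, the gene of a calcium-responsive factor, fell by 0.38 in Wt (edgeR adjusted p 0.0472). Nfatc3, a second NFAT factor, had a log2 fold change of 0.19 in Wt that did not pass (edgeR adjusted p 0.192).

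Prdm1 encodes Blimp-1, the repressor of repressors in this pathway. Its position is chromosome 10, 44437177 to 44528501, minus strand. Its level was 30.5 and 27.4 CPM in R0D3 Wt, and 112 and 134 CPM in R40D3 Wt. In LysM-cKO it was 23.0 and 23.5 CPM at R0D3, and 84.1 and 111 CPM at R40D3. Each R40D3 library was above each R0D3 library, and in R0D3 both LysM-cKO libraries were below both Wt libraries. Prdm1 rose 4.25-fold in Wt (log2 fold change 2.09, edgeR adjusted p 0.000439, SE 0.16) and 4.19-fold in LysM-cKO (2.07, edgeR adjusted p 0.000727, SE 0.16).

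Irf8 encodes an interferon regulatory factor of the monocyte lineage that blocks osteoclast formation. The gene spans 120736358 to 120756694 on chromosome 8, plus strand. Its level was 219.7 and 209.5 CPM in R0D3 Wt, and 148 and 121 CPM in R40D3 Wt. In LysM-cKO it was 193 and 199 CPM at R0D3, and 159 and 125 CPM at R40D3. The R40D3 and R0D3 groups did not overlap in either genotype, but the R40D3 libraries still held more than 120 CPM. Irf8 fell by 0.67 on the log2 scale in Wt (edgeR adjusted p 0.016, SE 0.14), to 62.7% of its R0D3 level. In LysM-cKO the log2 fold change was −0.46 (SE 0.14), which did not pass (edgeR adjusted p 0.0829) but passed with the replicate block (adjusted p 0.0111). The Wt call ended without R0D3 Wt replicate 1, R0D3 Wt replicate 2 or R40D3 Wt replicate 2 (edgeR adjusted p 0.102, 0.0774 and 0.083).

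Bcl6 encodes a zinc finger repressor that restrains NFATc1 target genes. Its position is chromosome 16, 23965052 to 23988852, minus strand. Its level was 47.9 and 45.0 CPM in R0D3 Wt, and 24.1 and 19.4 CPM in R40D3 Wt. In LysM-cKO it was 48.5 and 63.9 CPM at R0D3, and 24.2 and 25.9 CPM at R40D3. Each R40D3 library was below each R0D3 library. Bcl6 fell by 1.09 on the log2 scale in Wt (edgeR adjusted p 0.00458, SE 0.16) and by 1.17 in LysM-cKO (edgeR adjusted p 0.00563, SE 0.16), to 46.9% and 44.6% of the R0D3 level. The Bcl6 call held in each of the 15 alternatives run for either genotype.

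Of 18 other genes reported as repressors of osteoclast differentiation, none rose and 4 fell in Wt, and none rose and 2 fell in LysM-cKO. Of all tested genes, 11.4% were called higher and 5.52% lower in Wt, and 6.99% and 3.15% in LysM-cKO. With the replicate block 7 of the 18 fell in Wt and 4 in LysM-cKO. Medians over this list were −0.13 (Wt) and −0.15 (LysM-cKO) on the log2 scale, beside 0.01 over all tested genes. Among them Ikzf1, Cebpg and Stat5b, which encode Ikaros, C/EBP gamma and a STAT factor, fell by 0.51, 0.49 and 0.40 in Wt (edgeR adjusted p 0.0151, 0.0109 and 0.0163). Irf2, an IRF family gene, fell by 0.40 in LysM-cKO (edgeR adjusted p 0.0449). Id2, an inhibitor of bHLH factors, had a log2 fold change of −0.99 in LysM-cKO that did not pass (edgeR adjusted p 0.0648) but passed with the replicate block (adjusted p 0.00104).

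All 15 osteoclast effector genes downstream rose in each genotype, by medians of 7.56 (Wt) and 6.998 (LysM-cKO) on the log2 scale. That list is made of genes known to be induced in osteoclasts and includes the osteoclast markers summed above. Its rise between these cultures was already known when it was written. Acp5, the gene of tartrate-resistant acid phosphatase, was at 15.8 and 13.1 CPM in R0D3 Wt, and at 5668 and 9379 CPM in R40D3 Wt. In LysM-cKO Acp5 was at 14.5 and 12.4 CPM, and at 2854 and 5800.1 CPM. Oscar, the gene of a costimulatory receptor and a known NFATc1 target, was at no more than 0.0622 CPM in R0D3, at 284 and 463 CPM in R40D3 Wt, and at 119 and 268 CPM in R40D3 LysM-cKO.

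Levels were compared between genes per kilobase of exonic length. In R0D3 Wt, Spi1 was the highest at 116 ± 0.747 CPM per kb (SD, n = 2), followed by Fos at 41.6 ± 43.5 and Irf8 at 30.4 ± 1.02, and the libraries of Fos and Irf8 overlapped. Mitf followed at 15.4, Nfatc1 at 11.2 and Bcl6 at 6.93 CPM per kb. Fosl2, Prdm1 and Jdp2 were the lowest at 5.46, 5.19 and 5.16 CPM per kb, and neighbours in this order overlapped. In R40D3 Wt, Spi1 at 170 ± 15.9 and Jdp2 at 153 ± 37.7 CPM per kb (SD, n = 2) overlapped at the top. Fos, Fosl2 and Nfatc1 followed at 72.8, 60.0 and 59.7 CPM per kb and overlapped in turn. Prdm1 at 22.1 and Irf8 at 19.1 CPM per kb overlapped, and Mitf at 11.7 and Bcl6 at 3.24 CPM per kb were lowest. The exonic length covers all annotated transcripts of a gene, so levels of genes with unused exons are understated.

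The genes with the profile most like that of Nfatc1 were ranked by Pearson correlation of log2 CPM over the 8 libraries, among 9697 genes that averaged 5 CPM or more. They were Msi2 (r 0.9994), Pdk3, Cyb561, Slc25a42 and Pheta1, the last with r 0.9979. Msi2, which encodes an RNA-binding protein, ranged from 16.6 to 21.8 CPM in the 4 R0D3 libraries and from 129 to 291 CPM in R40D3. Jdp2 and Fosl2 correlated with Nfatc1 at 0.9977 and 0.9974, Prdm1 at 0.995 and Spi1 at 0.9726. Fos was at 0.3863, Mitf at −0.8863, Irf8 at −0.9452 and Bcl6 at −0.966. The genes most like Irf8 were Snx5 (r 0.9931), Tnfrsf1b, Man2b1, Ccrl2 and Mpeg1 (r 0.9871). The 8 points are 2 cultures in 2 genotypes, so any gene that differs between the cultures scores highly, and these values are a description.

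LysM-cKO was compared with Wt within R40D3 to ask whether the regulators differ when Impdh2 is deleted. None of the 9 genes passed, against a background of 2 called genes, 0.0143% of those tested (edgeR quasi-likelihood). At an unadjusted p under 0.05 there were 1048 genes, 7.47% of those tested, and 1 of the 9, Nfatc1. With the replicate block 0 of the 9 passed, and 4 had an unadjusted p under 0.05, beside 2600 of the 14030 tested genes. With DESeq2 0 of the 9 passed. The block called 30 genes, 0.214% of those tested. The levels of Nfatc1, Fosl2, Jdp2, Spi1 and Prdm1 in LysM-cKO were below Wt within both replicate numbers, 5 of 9 against 34.3% of all tested genes. Those of Mitf, Irf8 and Bcl6 were above Wt within both, 3 of 9 against 31.7% of all tested genes.

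The Nfatc1 level in R40D3 LysM-cKO was 69.5% of Wt in replicate 1 and 79.7% in replicate 2, and the groups did not overlap. Its log2 fold change was −0.42 (SE 0.15, 95% interval −0.77 to −0.07), with an edgeR adjusted p of 0.648, and 0.17 with the replicate block. Non-overlap of that direction was found in 18.9% of all tested genes, and also held for Spi1 and Prdm1. Prdm1 was at 74.9% and 82.8% of Wt, a log2 fold change of −0.34 (edgeR adjusted p 0.648, SE 0.15). Spi1 was at 88.9% and 86.3% of Wt, a log2 fold change of −0.19 (edgeR adjusted p 0.659, SE 0.10).

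Jdp2 was at 62.2% and 73.1% of Wt and had a log2 fold change of −0.54 (edgeR adjusted p 0.648, SE 0.26). Fosl2 was at 70.4% and 73.8% of Wt, with a log2 fold change of −0.47 (edgeR adjusted p 0.664, SE 0.25). For both, the lower Wt library overlapped the LysM-cKO range, because replicate 1 was below replicate 2 in each genotype. Fos was at 75.2% of Wt in replicate 1 and 100.4% in replicate 2, with a log2 fold change of −0.07 (edgeR adjusted p 0.991, SE 1.18). With the block its interval narrowed to −0.51 to 0.11.

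Of the repressors, Bcl6 was at 100.5% and 133% of Wt, a log2 fold change of 0.20 (edgeR adjusted p 0.746, SE 0.16). Its groups did not overlap, as in 19.7% of all tested genes in that direction, although its replicate 1 libraries were at 24.1 and 24.2 CPM. Irf8 was at 107% and 103.5% of Wt, with a log2 fold change of 0.08 (edgeR adjusted p 0.885, SE 0.14). Its 95% interval was −0.24 to 0.40. The activator Mitf was at 108% and 113% of Wt, with a log2 fold change of 0.15 (edgeR adjusted p 0.715, SE 0.11).

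**Figure D4:**
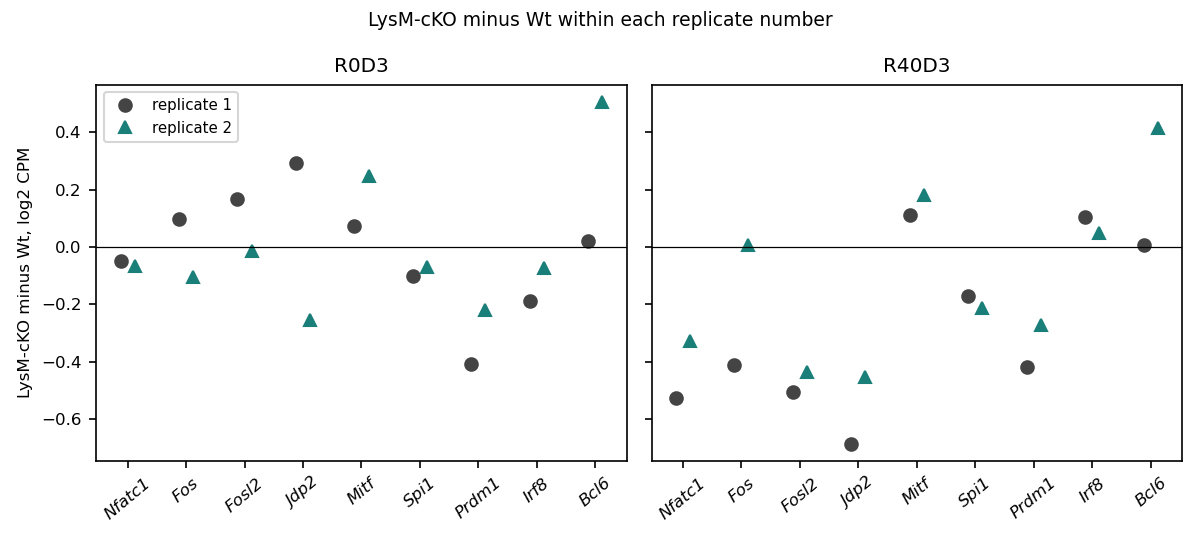
The y axis is LysM-cKO minus Wt in log2 CPM within replicate 1 (circles) and replicate 2 (triangles) for each of the 9 genes on the x axis, at R0D3 on the left and R40D3 on the right. At R40D3 Nfatc1, Fosl2, Jdp2, Spi1 and Prdm1 lie below 0 in both replicates, from −0.69 to −0.17, and none of these differences passed the edgeR test.

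Other measured levels at R40D3 are given by genotype, and no gene of these lists was called without the replicate block. The summed level of the 10 osteoclast markers in LysM-cKO was 49.8% of Wt in replicate 1 and 63.9% in replicate 2, and 10 of 10 had negative fold changes, with none called. All 15 effector genes, a list that includes these 10 markers, had negative log2 fold changes, and none passed. Their median was −0.63, beside −0.01 over all tested genes. With the replicate block Oscar (adjusted p 0.00282) and Car2 (adjusted p 0.0236), which encodes a carbonic anhydrase, did pass. The macrophage sum in LysM-cKO was 75.5% and 66.6% of Wt at R40D3 and 62.6% and 56.3% at R0D3. Most of it was Lyz2, the lysozyme gene for which LysM is named, at 18949 and 20334 CPM in R40D3 Wt and 11773 and 11302 CPM in R40D3 LysM-cKO. Without Lyz2, left out after its values were seen, the sum of the other 7 was 107.5% and 97.7% of Wt at R40D3 and 102.6% and 92.7% at R0D3. Adgre1 (124.1% and 124.8%), Itgam (126% and 122.6%) and Mrc1 (141.5% and 109.7%) were above Wt at R40D3. Csf1r (94.55% and 80.75%), Cd68 (88.01% and 96.48%), Cd14 (84.55% and 85.33%) and Fcgr1 (56.52% and 69.87%) were below Wt, as was Lyz2. Over the 8 macrophage markers 3 log2 fold changes were positive and 5 negative, with a median of −0.15, and none was called. The 8 granulocyte markers summed to 36.6% and 69.9% of Wt at R40D3 and to 51.6% and 71.6% at R0D3. The 8 stromal fibroblast markers were at 90.5% of Wt in replicate 1 and 27.9% in replicate 2 at R40D3, and ranged from 432 to 1616 CPM over R40D3. At R0D3 they were at 114.2% and 41.8% of Wt.

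Lymphoid and other markers were low. The 7 B cell markers summed to 18.9 to 47.7 CPM over the 8 libraries, and Ighm, an immunoglobulin heavy chain gene, made up 14.8 to 43.5 CPM. This sum in LysM-cKO was 150% and 168% of Wt at R40D3 and 103% and 102% of Wt at R0D3. Ighm was at 183.6% and 195.2% of Wt at R40D3, a log2 fold change of 0.92 that passed with the replicate block (edgeR adjusted p 0.022) and not without it. The 6 T and NK cell markers summed to at most 0.370 CPM, with Cd3g at 0 in all 8 libraries. Dendritic cell markers summed to at most 5.13 CPM, and mast cell and basophil markers to at most 2.46 CPM. The part of these levels in the 9 regulators' values was not tested.

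The pathway lists held no called gene between genotypes at R40D3. Rcan1 had a log2 fold change of −0.51 (edgeR adjusted p 0.648, SE 0.15), and Maff of −0.64 (edgeR adjusted p 0.648, SE 0.26). Among the other repressors Cebpg and Ikzf1 had log2 fold changes of 0.33 and 0.27 (edgeR adjusted p 0.648 for each). In that list of 18 genes, 11 values were positive and the median was 0.11, beside −0.01 over all tested genes.

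At R0D3 none of the 9 genes passed between genotypes either, with 2 genes, 0.0143%, called by edgeR. At an unadjusted p under 0.05 there were 620 genes, 4.42% of those tested, and none of the 9, and DESeq2 called 7 genes and none of the 9. The genotype groups at R0D3 overlapped for Nfatc1, Fos, Fosl2 and Jdp2, whose log2 fold changes were −0.06, −0.08, 0.09 and 0.04. Mitf and Bcl6 lay higher without overlap in LysM-cKO, as 17.5% of all tested genes did. Spi1, Prdm1 and Irf8 lay lower without overlap, as 14.8% did. Prdm1 was furthest from 0 at −0.32 (edgeR adjusted p 0.997, SE 0.16).

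Whether the change between cultures differed between genotypes was tested as an interaction. None of the 9 genes and none of the 14030 tested passed (edgeR quasi-likelihood), nor did any with DESeq2, while 248 genes, 1.77% of those tested, and none of the 9 had an unadjusted p under 0.05. The interaction was −0.58 for Jdp2 (95% interval −1.55 to 0.38), −0.56 for Fosl2 (−1.40 to 0.29) and −0.36 for Nfatc1 (−0.86 to 0.14). It was −0.02 for Prdm1 (−0.52 to 0.48), 0.21 for Irf8 (−0.25 to 0.67) and −0.07 for Bcl6 (−0.60 to 0.45). These intervals leave room for changes in LysM-cKO that are smaller or larger than in Wt.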

How the data were processed

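RNA was extracted with TRIzol and made into mRNA libraries, per the labels' protocols. The authors deposited raw counts of reads as whole numbers for each Ensembl gene, with replicates 1 and 2 in separate tables. The submitters' processing notes list FastQC 0.11.2, Trimmomatic 0.36, HISAT2 2.1.0, DESeq2 1.12.4 and the build GRCm38. The counting tool, annotation and use of strand are not given in the sources used here. Symbols matched 99.5% of 55401 identifiers. Positions and exonic lengths came from GENCODE on GRCm38, and promoter windows from RefSeq.

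Counts were tested with the quasi-likelihood test of edgeR 4.0.16 (legacy = FALSE, TMM scaling, filterByExpr), with 1 mean per group over the 8 libraries, two-sided, Benjamini-Hochberg over 14030 genes, called at an adjusted p under 0.05. The 4 groups share 1 estimate of the spread. Standard errors were derived from the fold change and its F statistic. CPM used the scaled library sizes, and log2 CPM a prior count of 2. The steps were tested on simulated data. Within each group the replicates differed beyond sampling noise (chi-square per degree of freedom at least 10.7).

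Libraries with the same number deviated together from their group means in all 6 pairs of groups (r 0.343 to 0.609), so the numbers were taken to pair them. A blocked value is printed where the call given for a named gene changes. It was planned as an alternative, as were other scalings, no filter, legacy = TRUE, DESeq2 1.42.0, the 4 compared libraries alone, and leaving out each library.

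The 9 genes and the gene and marker lists were chosen with earlier results of these data known. The rule for named genes took Impdh2, the 9 genes, up to 4 genes with the smallest p per pathway list and contrast with at least 1 CPM, and the 5 genes most like Nfatc1 and Irf8. Capn11, Gm47863, Gm20388, Junb, Fosb and Batf fall outside it, and single markers and effector genes were named as examples. Some genes counted in the lists are not reported here by name.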

Additional observations from a re-analysis of the deposited data

How the results depend on the processing

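The 45 values of the 9 genes (5 comparisons each) were recomputed under up to 15 alternatives, 666 in all. Of these, 604 kept their direction and side of the threshold, 20 lost a call, 9 gained one and 33 changed sign. Nfatc1, Fosl2, Jdp2, Prdm1 and Bcl6 kept their calls between cultures in each alternative, in both genotypes. With the replicate block, 3977 genes were called between cultures in Wt, 2983 in LysM-cKO, and 30 between genotypes at R40D3, and it changed no other call among the 9 genes than those given for Fos, Mitf and Irf8. Genes called between genotypes at R40D3 were 23 with DESeq2, 0 with library size alone and 0 with the 4 compared libraries alone. At R0D3 they were 7 with DESeq2 and 0 with the 4 compared libraries alone, and in LysM-cKO 533 were called between cultures with those alone. Leaving out 1 library gave 689 to 2425 genes between cultures in Wt and 399 to 1317 in LysM-cKO, 0 between genotypes at R40D3, and 0 to 1 at R0D3. The lowest Wt counts, 689, 799 and 803, came without R40D3 Wt replicate 2, R0D3 Wt replicate 1 and R0D3 Wt replicate 2, and the lowest LysM-cKO counts, 399 and 475, without R0D3 LysM-cKO replicate 2 and R40D3 LysM-cKO replicate 2. These fits hold fewer samples. Of the 9 genes, 5 to 8 were called in Wt and 5 to 7 in LysM-cKO. A lone library in a group was assumed to vary like the others.

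Signs changed for values near 0 or for Fos, none of them called. With the block the Fos interaction was −0.18. The Mitf interaction was 0.00776 with library size alone and 0.0121 without the filter, and that of Prdm1 was 0.00127 and 0.00754. Over the leave-outs, Fos ranged from −0.59 to 2.74 between cultures in Wt, from −0.91 to 2.58 in LysM-cKO, from −1.79 to 1.31 between genotypes at R40D3, from −1.84 to 1.85 at R0D3 and from −1.92 to 1.77 in the interaction. At R40D3 Irf8 ranged from −0.0807 to 0.23. At R0D3 Nfatc1 ranged from −0.16 to 0.0188, Fosl2 from −0.22 to 0.32 and Jdp2 from −0.24 to 0.25. In the interaction Prdm1 ranged from −0.24 to 0.20, Mitf from −0.12 to 0.12, Bcl6 from −0.23 to 0.14 and Spi1 from −0.19 to 0.0178. The cause was not tested. With 2 libraries a group, the precision is limited by their number and spread more than by depth.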
